A study of Mus musculus with 32 samples.

Results

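The step from zeitgeber time (ZT, hours on the light schedule) 6 to ZT12 in mice kept in long light (LL) was read as LL ZT12 livers against LL ZT6 livers, chosen by the titles of the libraries. This took 8 of the 32 libraries of the series, 4 of each group and 1 mouse each. All groups used here were males of the inbred strain C3H/HeNCrl fed a high fat diet. LL ZT12 and LL ZT6 were the groups of the step. Short light (SL) livers of the same strain, sex and diet at ZT12, ZT6, ZT0 and ZT18, 4 mice each, served for comparison. The labels do not say how many hours of light LL and SL had, which event set ZT0 or how old the mice were. Whole liver was sequenced from polyadenylated RNA, so fewer cells of a type and less RNA per cell cannot be told apart in any value below. With a single strain, sex and diet, nothing here speaks of other mice.

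The liver clock is a loop of transcription. BMAL1 (gene Arntl) pairs with CLOCK or NPAS2 and binds E-boxes to drive the genes for its own repressors, the PER and CRY proteins, CIART and the REV-ERB receptors Nr1d1 and Nr1d2. REV-ERB and ROR receptors compete for ROR elements at Arntl, Npas2 and Nfil3, and the PAR bZIP factors DBP, TEF and HLF, with NFIL3 as their opponent, pass the rhythm on through D-boxes. In liver, the loop and the feeding rhythm together set the daily levels of many enzymes of lipid, bile acid, haem and drug metabolism.

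The 8 libraries held 10960794 to 27462776 reads counted in genes, and levels are given as CPM, read counts scaled to a common total in every library. Hepatocyte transcripts marked all 8 as liver. Of 12 listed hepatocyte genes, 11 were tested. Those 11 summed to 128514 to 138759 CPM in LL ZT12 livers, against 124698 to 136190.5 CPM in LL ZT6 livers. A single library stood apart. The log2 CPM of LL ZT12 replicate 3 had a mean correlation of 0.969 with its group mates, and 1074 genes in it lay over 1 log2 unit from the mean of the other 3, against 84 to 132 genes in the other LL ZT12 livers. The first principal component of the 8 libraries held 37.5% of the variance, with replicate 3 at one end. The difference followed transcript length, and the plot by exon length shows it for each library. The median of 1805 genes with under 1500 bases of exon was 0.44 log2 units higher in replicate 3 than in its mates, and that of 4137 genes with over 6000 bases was 0.29 lower (-0.29). In the other 7 libraries these medians lay between -0.19 and 0.13. The step of the short genes had a median of 0.11 log2 units with replicate 3 and -0.03 without it, over 1805 and 1864 tested genes. Among the long genes, 192 were called higher and 222 lower in LL ZT12 livers with replicate 3, against 289 higher and 151 lower without it. Counts and calls that turn on this library are given with and without it, and its part in the other results was not tested.

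**Figure D1:**
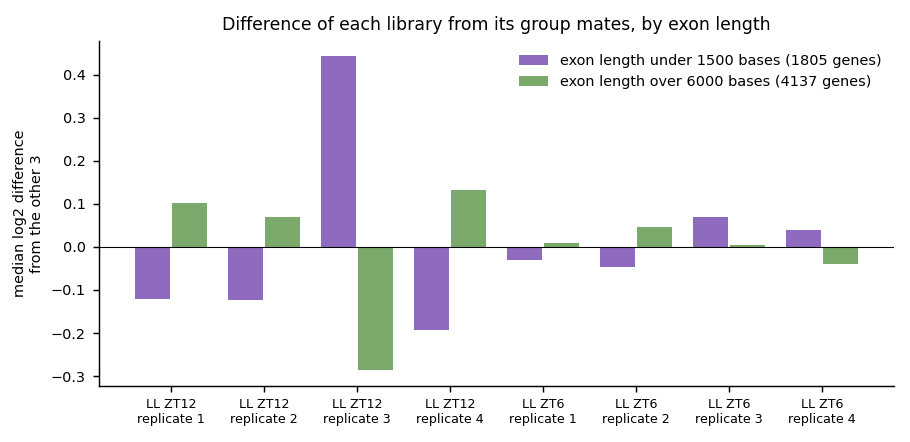
Median log2 difference in CPM of each library from the other 3 of its group (vertical axis), for 1805 short genes and 4137 long genes by exon length; the 4 LL ZT12 livers are on the left and the 4 LL ZT6 livers on the right. LL ZT12 replicate 3 lies at 0.44 for short and -0.29 for long genes, and the other libraries lie between -0.19 and 0.13.

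Across 14456 tested genes, 1410 (9.75%) differed between LL ZT12 and LL ZT6 livers by the quasi-likelihood F-test of edgeR, with p-values adjusted by Benjamini-Hochberg over all tested genes and a threshold of 0.05. All adjusted p-values below come from this fit unless another is named. Of these genes, 724 were higher in LL ZT12 livers (5.01% of those tested) and 686 were lower (4.75%). At an unadjusted p under 0.05 were 3418 of the 14456. The shares and this count are the background for the counts of list members below. Most changes were modest. The median size was 0.56 log2 units for the risen genes and 0.53 for the fallen ones, and 150 risen and 119 fallen genes moved by at least 1 log2 unit. Those past 2 log2 units numbered 29 and 23. Among the risen genes, 517 had no overlap between the 4 LL ZT12 and the 4 LL ZT6 values, as had 542 of the fallen genes. Over all tested genes, 5.13% were without overlap and higher in LL ZT12 livers and 6.21% without overlap and lower. The risen genes together took 9.27 ± 0.65% of all counts in LL ZT12 livers and 6.56 ± 0.29% in LL ZT6 livers (SD, n = 4 each). The fallen genes took 4.37 ± 0.36% of counts in LL ZT12 livers and 6.55 ± 0.32% in LL ZT6 livers, and as these genes were chosen by the same contrast, the shares are descriptions. Protein-coding genes made up 641 of the risen and 637 of the fallen. Without LL ZT12 replicate 3, 1298 genes were called, 728 higher and 570 lower. Both calls shared 909 genes (64.5% of the 1410 and 70.0% of the 1298), all with the same sign. A fit on the 8 libraries of the step alone, which estimates the spread from them, called 387 genes, of which 385 were among the 1410, and without replicate 3 it called 999.

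**Figure D2:**
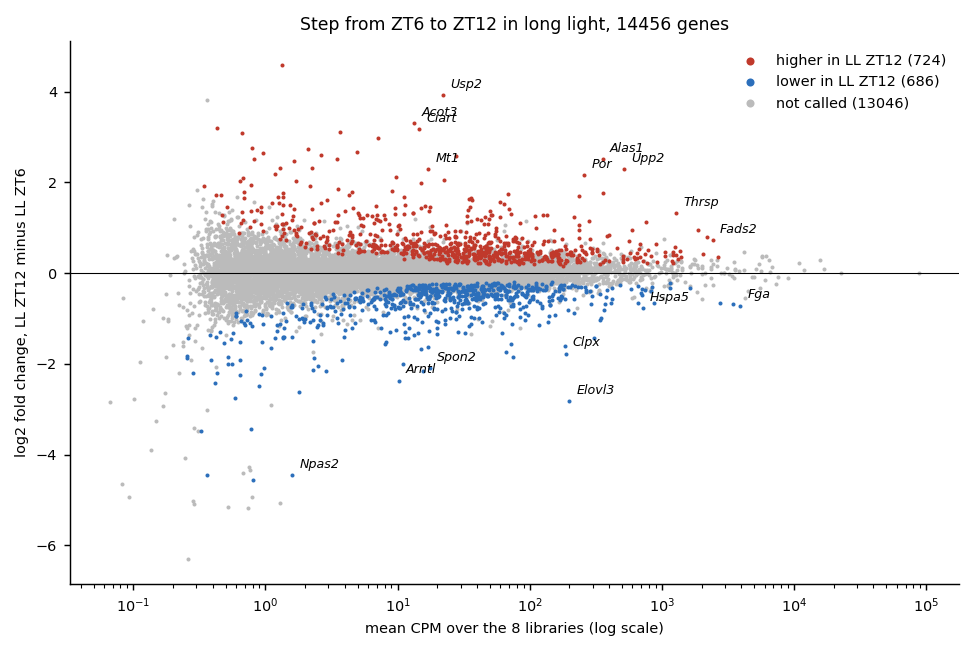
Log2 fold change of each of 14456 genes, LL ZT12 minus LL ZT6 (vertical axis), against its mean CPM over the 8 libraries (horizontal axis, log scale). Red points are the 724 genes called higher in LL ZT12 livers and blue points the 686 called lower; Usp2 lies at 3.93 and Npas2 at -4.45.

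Clock genes were among the largest changes in both directions. Of the 5 listed activators of the clock, 3 were lower in LL ZT12 livers. Arntl (chr7:113207465-113314126 on GRCm38 by GENCODE M21), the gene for BMAL1, stood at 4.75, 2.61, 1.76 and 4.32 CPM in LL ZT12 livers, against 8.42, 20.8, 21.5 and 17.4 CPM in LL ZT6 livers. All 4 LL ZT12 values lay below the lowest LL ZT6 value, and the log2 fold change was -2.37 ± 0.27 (SE), adjusted p = 3.0e-07. Npas2 (chr1:39193731-39363236), the gene for the alternative partner of BMAL1, had 0, 0.127, 0.316 and 0.0757 CPM in LL ZT12 livers, against 1.74, 4.13, 3.77 and 2.65 CPM in LL ZT6 livers. It was at or close to 0 in the 4 LL ZT12 livers, and the fitted log2 fold change of -4.45 ± 0.57 (adjusted p = 2.4e-06) depends on how a library with no read is handled. Clock itself had 34.04, 20.6, 14.9 and 27.8 CPM in LL ZT12 livers, against 38.8, 48.3, 54.4 and 46.8 CPM in LL ZT6 livers, a smaller fall of the same direction (log2 fold change -0.96 ± 0.20 (SE), adjusted p = 0.0013). Its groups did not overlap. Rora, the gene for an activator that binds ROR elements, was not called (-0.02 ± 0.20, adjusted p = 0.97), and its lowest value of the 8, 38.7 CPM, was that of LL ZT12 replicate 3.

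Of the 10 listed repressors, 6 rose and none was called lower by edgeR or DESeq2. With limma-voom 6 were called higher and 1 lower, and 9 of the 10 had an unadjusted p under 0.05. Ciart (chr3:95878503-95882251), the gene for a repressor that binds BMAL1, had 17.4, 20.8, 51.9 and 13.4 CPM in LL ZT12 livers, against 6.22, 1.49, 2.44 and 2.28 CPM in LL ZT6 livers (log2 fold change 3.17 ± 0.41 (SE), adjusted p = 2.8e-06). The highest of these was replicate 3, and without it the log2 fold change was 2.59. Per1 stood at 47.4, 37.96, 63.6 and 38.4 CPM in LL ZT12 livers, against 14.005, 8.04, 4.67 and 5.98 CPM in LL ZT6 livers (log2 fold change 2.59 ± 0.29 (SE), adjusted p = 2.8e-07). Per3 had 91.2, 106, 128 and 95.6 CPM in LL ZT12 livers, against 52.2, 21.98, 19.8 and 33.1 CPM in LL ZT6 livers (1.75 ± 0.24, adjusted p = 6.6e-06). In all 3 genes every LL ZT12 liver lay above every LL ZT6 liver. Per2, the other period gene, was higher by less, with 79.9, 84.8, 109.5 and 99.7 CPM in LL ZT12 livers, against 78.99, 52.3, 45.9 and 44.4 CPM in LL ZT6 livers, and the lowest LL ZT12 value only just cleared the highest LL ZT6 value (log2 fold change 0.76 ± 0.18 (SE), adjusted p = 0.0054). Nr1d2, for REV-ERB beta, rose (0.70 ± 0.18, adjusted p = 0.0089), as did Cry2 (0.37 ± 0.10, adjusted p = 0.011).

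Nr1d1, the gene for REV-ERB alpha, was lower in LL ZT12 livers without passing the threshold. It had 37.3, 60.6, 61.2 and 38.1 CPM in LL ZT12 livers, against 82.9, 71.5, 80.5 and 113 CPM in LL ZT6 livers. The groups did not overlap (log2 fold change -0.82 ± 0.28 (SE), adjusted p = 0.057), and the test passed without replicate 3 (adjusted p = 0.043 without it and 0.0096 to 0.18 over all alternatives). Nr1d1 overlaps Thra on the opposite strand, and the sources used here do not give the strand setting of the counting. Cry1 was not called, with overlapping groups at 16.8, 14.6, 9.70 and 16.4 CPM in LL ZT12 livers, against 13.8, 16.1, 12.5 and 12.6 CPM in LL ZT6 livers (log2 fold change 0.06 ± 0.14 (SE), adjusted p = 0.84). Bhlhe40 and Bhlhe41, for repressors that compete at E-boxes, were at 0.72 ± 0.27 and 1.25 ± 0.43 and not called (adjusted p = 0.088 and 0.064).

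All 4 listed clock output factors changed, 3 upward and Nfil3 downward. Dbp had 54.04, 89.7, 168 and 68.9 CPM in LL ZT12 livers, against 48.1, 17.2, 20.8 and 47.8 CPM in LL ZT6 livers, with the highest value again in replicate 3 (log2 fold change 1.52 ± 0.33 (SE), adjusted p = 0.0022, and 1.10 without that library). Dbp overlaps Sphk2, so reads of both may be mixed. Tef had 282, 323, 331 and 287 CPM in LL ZT12 livers, against 176, 108, 114 and 124 CPM in LL ZT6 livers, with no overlap between the groups (log2 fold change 1.23 ± 0.14 (SE), adjusted p = 3.0e-07). Hlf rose less (0.45 ± 0.15, adjusted p = 0.046), and its groups overlapped. Nfil3, for the factor that opposes the other three at D-boxes, had 22.7, 25.2, 24.2 and 27.3 CPM in LL ZT12 livers, against 31.1, 37.5, 45.1 and 41.8 CPM in LL ZT6 livers. Each LL ZT12 value was below each LL ZT6 value (log2 fold change -0.65 ± 0.13 (SE), adjusted p = 9.9e-04).

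**Figure D3:**
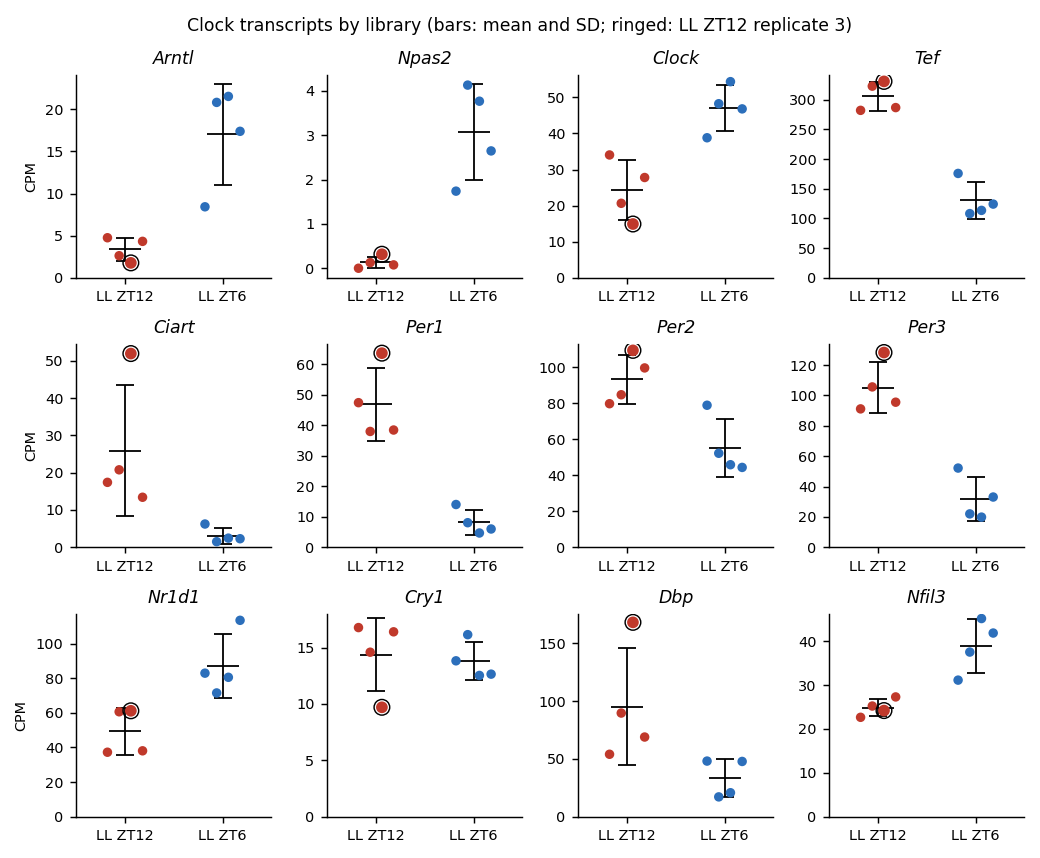
CPM (vertical axis, from 0) of 12 clock genes in the 4 LL ZT12 livers (left, red) and the 4 LL ZT6 livers (right, blue); dashes are means, error bars are SD, and the ringed point is LL ZT12 replicate 3. Arntl, Npas2, Clock and Nfil3 lie lower and Ciart, Per1, Per2, Per3, Tef and Dbp higher in LL ZT12 livers, while Cry1 overlaps and Nr1d1 is separated but not called.

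Promoter windows of 300 bases, from 250 before to 50 after the RefSeq start nearest to the annotated gene start (GRCm38.p6), were read for 531 of the risen genes, 513 of the fallen genes and 10485 of all tested genes. The E-box CACGTG, which reads the same on both strands, was in 14.1% of risen, 9.75% of fallen and 10.01% of all windows. The D-box TTANGTAA was in 3.01%, 1.17% and 1.53% (16, 6 and 160 windows), each on either strand. The ROR element TAGGTCA, also on either strand, was in 2.82%, 3.12% and 2.11% (15, 16 and 221 windows). The heat shock element (GAANNTTC or TTCNNGAA) was in 11.3%, 10.9% and 11.9%, the cAMP element TGACGTCA in 2.26%, 1.36% and 3.13%, and the sterol element TCACNCCAC in 1.13%, 1.17% and 1.16%. Among genes that moved by at least 1 log2 unit, 92 risen and 76 fallen genes had a window. The E-box was in 12 and 4 of these, the D-box in 3 and 2, and the ROR element in 1 and 2. Each motif was searched by itself, so that a window could count for several, and a match is a description of the letters alone. The following windows are those of called clock genes with an E-box, a D-box or a ROR element, and of Dhrs9, a large fall with a ROR element, with the matched letters in capitals. Ciart holds 3 E-boxes, Per1 and Tef 1 each, and Per3 holds 2 D-boxes. Nfil3 and Dhrs9 each hold a ROR element, read from the opposite strand as TGACCTA. Those of Per1, Per3, Tef and Nfil3 were added after the matches were seen.
Ciart (chr3:95882179-95882478, minus strand): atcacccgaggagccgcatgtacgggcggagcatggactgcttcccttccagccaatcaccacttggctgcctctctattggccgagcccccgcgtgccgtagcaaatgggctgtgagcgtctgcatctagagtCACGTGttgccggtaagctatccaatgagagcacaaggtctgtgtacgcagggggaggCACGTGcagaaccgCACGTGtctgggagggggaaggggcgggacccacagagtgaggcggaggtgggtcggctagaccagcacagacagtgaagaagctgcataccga
Per1 (chr11:69098699-69098998, plus strand): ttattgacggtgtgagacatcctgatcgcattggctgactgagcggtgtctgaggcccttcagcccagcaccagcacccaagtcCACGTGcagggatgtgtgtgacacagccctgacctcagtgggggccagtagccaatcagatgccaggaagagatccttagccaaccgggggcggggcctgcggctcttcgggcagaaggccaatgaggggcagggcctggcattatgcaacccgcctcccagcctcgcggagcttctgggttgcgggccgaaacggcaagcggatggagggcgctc
Tef (chr15:81802423-81802722, plus strand): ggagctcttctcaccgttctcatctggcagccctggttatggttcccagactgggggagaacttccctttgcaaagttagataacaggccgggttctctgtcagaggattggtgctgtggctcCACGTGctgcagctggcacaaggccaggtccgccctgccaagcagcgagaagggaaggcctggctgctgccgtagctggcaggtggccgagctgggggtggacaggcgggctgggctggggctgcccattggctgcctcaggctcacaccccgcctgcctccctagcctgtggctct
Per3 (chr4:151044616-151044915, minus strand): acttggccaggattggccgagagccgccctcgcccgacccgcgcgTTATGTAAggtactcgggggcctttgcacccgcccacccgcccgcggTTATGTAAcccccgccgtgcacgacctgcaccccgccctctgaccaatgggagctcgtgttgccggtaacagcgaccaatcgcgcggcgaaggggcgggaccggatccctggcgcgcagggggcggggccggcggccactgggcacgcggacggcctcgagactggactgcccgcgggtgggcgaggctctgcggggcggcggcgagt
Nfil3 (chr13:52980990-52981289, minus strand): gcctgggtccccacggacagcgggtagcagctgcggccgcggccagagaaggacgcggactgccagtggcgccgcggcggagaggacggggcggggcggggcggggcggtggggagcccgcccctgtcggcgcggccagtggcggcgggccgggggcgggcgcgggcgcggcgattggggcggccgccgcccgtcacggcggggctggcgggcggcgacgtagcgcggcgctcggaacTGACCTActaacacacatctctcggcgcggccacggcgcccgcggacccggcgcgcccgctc
Dhrs9 (chr2:69380212-69380511, plus strand): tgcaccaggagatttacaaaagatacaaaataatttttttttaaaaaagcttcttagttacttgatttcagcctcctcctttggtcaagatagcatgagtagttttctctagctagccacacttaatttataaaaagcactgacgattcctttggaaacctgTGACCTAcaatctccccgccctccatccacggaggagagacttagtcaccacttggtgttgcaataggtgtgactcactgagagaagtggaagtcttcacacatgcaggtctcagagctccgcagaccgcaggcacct
Counted from the start, the E-boxes of Ciart begin 116, 58 and 44 bases before it, that of Per1 166 before it and that of Tef 127 before it. The D-boxes of Per3 begin 205 and 158 bases before its start, the element of Nfil3 begins 12 before and that of Dhrs9 88 before. None of the 6 motifs was in the windows of Usp2, Acot3, Ppp1r3g, Npas2, Arntl, Clic3, Cry2, Nr1d1, Nr1d2 or Dbp. An E-box also stood in those of Cry1 and Bhlhe41, which were not called, and of Ppp1r3c, which fell.

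Among all genes, Usp2 (chr9:44067021-44095627) had the largest rise of those named and the smallest p. It codes for a deubiquitinase, an enzyme that removes ubiquitin from proteins, and had 39.5, 37.4, 51.98 and 35.02 CPM in LL ZT12 livers, against 6.77, 1.93, 1.58 and 1.87 CPM in LL ZT6 livers. The fitted fold was 15.3 in LL ZT12 over LL ZT6 livers (log2 fold change 3.93 ± 0.30 (SE), adjusted p = 1.0e-09). Acot3, for a peroxisomal acyl-CoA thioesterase, had 34.6, 31.7, 20.4 and 10.3 CPM in LL ZT12 livers, against 3.02, 5.29, 1.40 and 0.502 CPM in LL ZT6 livers (log2 fold change 3.32 ± 0.53 (SE), adjusted p = 7.5e-05). Its near copy Acot1 rose as well (1.22 ± 0.33, adjusted p = 0.016), and reads between members of this family may be shared. Upp2, for the uridine phosphorylase of liver, which breaks uridine down, was abundant with 865, 813, 1064 and 724 CPM in LL ZT12 livers, against 227, 140.2, 163 and 177 CPM in LL ZT6 livers. No LL ZT12 value came near the LL ZT6 values (log2 fold change 2.29 ± 0.20 (SE), adjusted p = 2.9e-09). Papss2, for the enzyme that makes the sulfate donor of conjugation, had 359, 346, 275 and 294 CPM in LL ZT12 livers, against 179, 147, 142 and 141 CPM in LL ZT6 livers, a smaller but very even change (log2 fold change 1.07 ± 0.09 (SE), adjusted p = 2.2e-09).

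Alas1, Por and 8 other listed genes of drug metabolism rose. Alas1, for the rate-limiting enzyme of haem synthesis, had 905, 231, 669 and 634 CPM in LL ZT12 livers, against 134, 94.5, 144 and 54.8 CPM in LL ZT6 livers. The 4 LL ZT12 livers were spread widely but all lay above the LL ZT6 livers (log2 fold change 2.51 ± 0.51 (SE), adjusted p = 0.0011). Por, for the reductase that passes electrons to the cytochromes P450, had 479, 421, 441 and 356 CPM in LL ZT12 livers, against 133, 81.9, 87.3 and 77.03 CPM in LL ZT6 livers (log2 fold change 2.16 ± 0.18 (SE), adjusted p = 2.2e-09). Of the 24 listed drug metabolism genes, 10 were called higher and none lower by edgeR, 11 and 0 by DESeq2, 10 and 0 by limma-voom, and 9 and 0 without replicate 3, with 13 at an unadjusted p under 0.05. The median log2 fold change of the list was 0.44, beside -0.003 over all tested genes. Both xenobiotic receptors were among them, Nr1i3 (CAR, 1.26 ± 0.17, adjusted p = 3.7e-06) and Nr1i2 (PXR, 0.79 ± 0.09, adjusted p = 8.8e-07). Cyp2a5 had 478, 502, 875 and 369 CPM in LL ZT12 livers, against 219, 159.9, 134 and 146 CPM in LL ZT6 livers (log2 fold change 1.76 ± 0.20 (SE), adjusted p = 3.2e-07), with the reservation that its close copy Cyp2a4, which varied too widely to be called (0.75 ± 1.01, adjusted p = 0.71), may share its reads. The glutathione transferases Gsta3 and Gsta2, the sulfotransferase Sult1d1 and the P450 genes Cyp3a13 and Cyp1a2 completed the 10, at 0.40, 0.86, 0.57, 0.44 and 0.56 on the log2 scale, and Gsta2 and Cyp1a2 were not called without replicate 3. Cyp2b10 and Cyp3a11, targets of these receptors, were at -0.18 ± 0.75 and 0.75 ± 1.14, errors too large for a call (adjusted p = 0.92 and 0.75).

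The remaining large rises were of smaller or less even transcripts. Ppp1r3g, for a subunit that brings protein phosphatase 1 to glycogen, had 2.97, 3.63, 8.62 and 2.99 CPM in LL ZT12 livers, against 0.275, 0.441, 0.251 and 1.87 CPM in LL ZT6 livers (log2 fold change 2.61 ± 0.56 (SE), adjusted p = 0.0020). Nat8f5, of a family of acetyltransferase genes with near-identical copies, had 3.16, 2.61, 2.12 and 3.18 CPM in LL ZT12 livers, against 1.10, 0.331, 0.610 and 0.137 CPM in LL ZT6 livers (2.47 ± 0.42, adjusted p = 1.6e-04). Tnnc1, for a troponin C of slow and cardiac muscle, had 1.52, 1.72, 2.66 and 1.93 CPM in LL ZT12 livers, against 0.275, 0.661, 0.502 and 0.228 CPM in LL ZT6 livers (2.19 ± 0.42, adjusted p = 6.3e-04). Muscle markers did not follow it. Of 11 listed skeletal muscle genes, 10 were tested. They summed to 0.946 to 1.53 CPM in LL ZT12 livers, against 0.732, 9.31, 26.5 and 1.05 CPM in LL ZT6 livers. The high sums were thus in 2 LL ZT6 livers. The median log2 fold change of the 10 tested muscle genes was -4.67, and 0 were called by edgeR or limma-voom, 1 lower by DESeq2, and 6 had an unadjusted p under 0.05.

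The metallothioneins, small proteins that bind zinc and copper, were highest in replicate 3 and not called without it. Mt1 had 21.6, 15.3, 69.4 and 6.97 CPM in LL ZT12 livers, against 6.50, 5.67, 6.03 and 5.20 CPM in LL ZT6 livers. Replicate 3 was far above the next value, though all 4 LL ZT12 values lay above the LL ZT6 values, and without it the rise of 2.29 became 1.31 on the log2 scale (adjusted p = 0.057 without it and 3.6e-06 to 0.12 over all alternatives). Mt2 had 3.35, 0.828, 10.02 and 0.795 CPM in LL ZT12 livers, against 0.824, 0.936, 0.646 and 0.684 CPM in LL ZT6 livers, with overlap between the groups, and its rise of 2.32 likewise became 1.06 (adjusted p = 0.46 without it and 0.0031 to 0.46 over all alternatives). The near-identical coding parts of Mt1 and Mt2 may also share reads. Of the 14 glucocorticoid-induced genes listed, 4 rose and 1 fell with all libraries, and 2 rose and 1 fell without replicate 3. The 2 that remained high were Per1 and the co-chaperone gene Fkbp5, which rose by 0.94 ± 0.24 (adjusted p = 0.012). Cdkn1a, for the cell cycle inhibitor p21, fell, with 2.40, 1.97, 2.17 and 2.27 CPM in LL ZT12 livers, against 2.84, 8.48, 6.53 and 5.02 CPM in LL ZT6 livers (log2 fold change -1.41 ± 0.30 (SE), adjusted p = 0.0017).

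Elovl3 gave the most certain of the large falls. It codes for an elongase of very long chain fatty acids and had 36.3, 52.3, 52.3 and 55.6 CPM in LL ZT12 livers, against 253, 285, 449.7 and 407 CPM in LL ZT6 livers, with a log2 fold change of -2.83 ± 0.23 (SE), adjusted p = 2.2e-09. Its annotation overlaps Pitx3. Spon2, for a secreted matrix protein, had 6.14, 7.07, 6.63 and 6.93 CPM in LL ZT12 livers, against 18.8, 38.4, 25.8 and 30.6 CPM in LL ZT6 livers. The 4 LL ZT12 values were within a narrow range far below the LL ZT6 values (log2 fold change -2.09 ± 0.26 (SE), adjusted p = 2.1e-06). Clpx, for the unfoldase of a mitochondrial protease, had 89.8, 94.1, 66.1 and 88.9 CPM in LL ZT12 livers, against 212, 362, 327 and 257 CPM in LL ZT6 livers (log2 fold change -1.77 ± 0.18 (SE), adjusted p = 3.9e-08). Slc30a10, for a manganese exporter, had 31.1, 29.9, 20.4 and 40.9 CPM in LL ZT12 livers, against 95.2, 115, 109.6 and 90.9 CPM in LL ZT6 livers (-1.74 ± 0.16, adjusted p = 7.8e-09). Ppp1r3c, for another glycogen-targeting subunit of protein phosphatase 1, had 37.9, 37.4, 23.7 and 31.7 CPM in LL ZT12 livers, against 88.4, 136, 120.2 and 126 CPM in LL ZT6 livers (-1.85 ± 0.24, adjusted p = 3.4e-06), opposite in direction to Ppp1r3g. Gys2, for liver glycogen synthase, rose at the same time, with 283, 344, 340.1 and 275 CPM in LL ZT12 livers, against 183, 155, 145 and 163 CPM in LL ZT6 livers (log2 fold change 0.94 ± 0.11 (SE), adjusted p = 1.1e-06).

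The rest of the 12 largest falls were Dtx4, for a ubiquitin ligase of the Deltex family (-1.68 ± 0.16, adjusted p = 1.3e-08), Dhrs9, for a short-chain dehydrogenase of retinol and steroids (-2.04 ± 0.29, adjusted p = 9.9e-06), Clic3, for a chloride channel protein (-2.13 ± 0.38, adjusted p = 2.3e-04), Atp2b2, for a plasma membrane calcium pump (-1.92 ± 0.41, adjusted p = 0.0021), and Zbtb7c, for a zinc finger factor (-2.61 ± 0.60, adjusted p = 0.0041). In all 5 the groups did not overlap. Dhrs9 had 1.52, 0.637, 0.451 and 1.29 CPM in LL ZT12 livers, against 3.66, 3.69, 3.73 and 4.93 CPM in LL ZT6 livers. Zbtb7c had 0.253, 0.637, 0.767 and 0.341 CPM in LL ZT12 livers, against 2.197, 2.97, 1.29 and 5.84 CPM in LL ZT6 livers, and the LL ZT6 livers varied most. Atp2b2 had 0.759, 1.97, 0.857 and 2.54 CPM in LL ZT12 livers, against 7.96, 7.27, 5.31 and 3.61 CPM in LL ZT6 livers.

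Among lipid genes, Fads1, Fads2, Lpin1 and Lpin2 rose, while Fasn, Acly, Scd1 and Srebf1 were not called. Of 21 genes of fatty acid and triglyceride synthesis, 6 rose and none fell by edgeR or limma-voom, 7 rose and 1 fell by DESeq2, and 8 rose and 1 fell without replicate 3, with 9 at an unadjusted p under 0.05. The list's median was 0.09. The risen members were Lpin1 and Lpin2, for phosphatidate phosphatases, Thrsp, a lipogenic regulator, the desaturases Fads1 and Fads2, and Dgat2, for the last step of triglyceride synthesis. Thrsp had 1796, 1613, 2369 and 1584 CPM in LL ZT12 livers, against 1097, 541, 581 and 741 CPM in LL ZT6 livers (log2 fold change 1.32 ± 0.23 (SE), adjusted p = 1.8e-04). Fads2 had 3023, 3412, 2437 and 3291 CPM in LL ZT12 livers, against 2415, 1739.6, 1464 and 1691 CPM in LL ZT6 livers (0.73 ± 0.14, adjusted p = 6.6e-04). Lpin2 had 357, 407, 438 and 366 CPM in LL ZT12 livers, against 196, 185, 147 and 174 CPM in LL ZT6 livers (1.16 ± 0.18, adjusted p = 6.9e-05). Of the core lipogenic genes, Fasn was at -0.58 ± 0.29, Acly at -0.21 ± 0.27, Scd1 at 0.08 ± 0.23 and Srebf1 at -0.02 ± 0.15 (adjusted p = 0.23, 0.70, 0.88 and 0.97).

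Of 28 genes of fatty acid oxidation and ketone synthesis, 6 rose and 2 fell (median 0.08, with 6 and 1 called without replicate 3). Besides Acot3 and Acot1, the risen ones included Cpt1a, for the entry of fatty acids into mitochondria, Slc25a20, for the carnitine carrier, and Acaa1b. Cpt1a had 851, 964, 565 and 807 CPM in LL ZT12 livers, against 623, 586, 489 and 522 CPM in LL ZT6 livers, with its lowest LL ZT12 value in replicate 3 (0.52 ± 0.12, adjusted p = 0.0036). The fallen ones were Pdk4, for the kinase that shuts off pyruvate dehydrogenase (-1.32 ± 0.43, adjusted p = 0.049), and Fgf21, for a fasting hormone (-0.79 ± 0.25, adjusted p = 0.043). Pdk4 and Acaa1b were not called without replicate 3. The fasting-responsive Cyp4a14 and Cyp4a10 were at -0.56 ± 0.81 and 0.01 ± 0.67, with wide errors and no call.

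Of 18 genes of gluconeogenesis and the fasting response, 6 rose and none fell by edgeR, DESeq2 or limma-voom (median 0.22, 8 at an unadjusted p under 0.05), and 4 rose without replicate 3. Pck1, for the rate-limiting enzyme of gluconeogenesis, had 2369, 2684, 3067 and 3011 CPM in LL ZT12 livers, against 2091, 1404, 1081 and 1866 CPM in LL ZT6 livers (log2 fold change 0.79 ± 0.23 (SE), adjusted p = 0.023). The transcription factor genes Foxo1 (0.74 ± 0.14, adjusted p = 5.9e-04), Foxo3 (0.59 ± 0.10, adjusted p = 9.3e-05) and Klf15 (0.39 ± 0.12, adjusted p = 0.034), Sds, for serine dehydratase (0.76 ± 0.19, adjusted p = 0.0081), and Ppp1r3g made up the rest, of which Sds and Klf15 were not called without replicate 3. G6pc, for the last step of glucose release, was at -0.52 ± 0.29 and not called (adjusted p = 0.29).

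Cyp7a1, the rate-limiting enzyme of bile acid synthesis, and Abcb11, the pump that exports bile acids, moved apart. Cyp7a1 had 506, 336, 290.1 and 303 CPM in LL ZT12 livers, against 127, 130.5, 88.8 and 97.6 CPM in LL ZT6 livers (log2 fold change 1.70 ± 0.33 (SE), adjusted p = 6.6e-04). Abcb11 had 499, 569, 403 and 581 CPM in LL ZT12 livers, against 789.9, 759.8, 881 and 787 CPM in LL ZT6 livers (-0.65 ± 0.11, adjusted p = 9.3e-05). Neither gene's groups overlapped. Over all tested genes, 5.01% were called higher and 4.75% lower. In the list of 19 bile acid genes, 3 rose and 1 fell (2 and 1 without replicate 3), with a median of 0.00044. The other 2 risen genes, Nr1h4, for the bile acid receptor FXR (0.36), and Abcg5, for a sterol exporter (0.42), were not called without replicate 3, and Abcg5 overlaps Abcg8. Of 25 cholesterol genes, 2 rose and 2 fell, and without replicate 3 none rose and 1 fell. That one was Hmgcs1, for the enzyme that makes hydroxymethylglutaryl-CoA, with 120.2, 207, 132 and 149 CPM in LL ZT12 livers, against 225, 324, 278 and 290.0 CPM in LL ZT6 livers (log2 fold change -0.88 ± 0.20 (SE), adjusted p = 0.0033). Insig2, for an anchor that holds sterol sensors in the endoplasmic reticulum, was taken up after its values were seen and had 160.3, 182, 118 and 201 CPM in LL ZT12 livers, against 406, 506, 437 and 429 CPM in LL ZT6 livers (-1.43 ± 0.16, adjusted p = 2.6e-07).

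Of 25 genes of amino acid breakdown and the urea cycle, 8 rose and 3 fell (median 0.12, 7 and 1 without replicate 3). The urea cycle genes Asl, Ass1 and Arg1 rose by 0.71, 0.32 and 0.41 log2 units, and both alanine transaminases, Gpt and Gpt2, by 0.47 and 0.44. Asl had 661, 652, 812 and 665 CPM in LL ZT12 livers, against 520.1, 375, 414 and 395 CPM in LL ZT6 livers (log2 fold change 0.71 ± 0.10 (SE), adjusted p = 2.3e-05). Prodh, for the first step of proline breakdown, rose by 0.79 ± 0.12 (adjusted p = 2.6e-05). Cbs, which turns homocysteine to cystathionine, went down, with 291, 339.7, 303 and 351 CPM in LL ZT12 livers, against 499, 494, 514 and 533 CPM in LL ZT6 livers (log2 fold change -0.67 ± 0.09 (SE), adjusted p = 3.5e-06). Of the 16 listed genes of NAD synthesis and sirtuins, 5 rose and 1 fell, and 3 rose without replicate 3. Nmrk1, for the kinase of nicotinamide riboside, had 41.7, 35.8, 38.9 and 27.4 CPM in LL ZT12 livers, against 11.6, 8.32, 8.40 and 6.57 CPM in LL ZT6 livers (log2 fold change 2.06 ± 0.17 (SE), adjusted p = 2.2e-09). Nampt, for the rate-limiting enzyme of NAD salvage, had 145, 119, 74.2 and 126 CPM in LL ZT12 livers, against 60.3, 61.7, 51.4 and 43.03 CPM in LL ZT6 livers, with the lowest of the LL ZT12 values in replicate 3 (1.10 ± 0.14, adjusted p = 2.6e-06). Wee1, for a clock-controlled kinase that delays mitosis, had 24.4, 32.5, 12.7 and 26.6 CPM in LL ZT12 livers, against 9.24, 6.67, 4.52 and 4.65 CPM in LL ZT6 livers (log2 fold change 1.98 ± 0.21 (SE), adjusted p = 1.3e-07), and was the only risen gene among 21 cell cycle regulators.

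Genes of protein folding in the secretory pathway fell. Of 22 chaperones and folding enzymes of the endoplasmic reticulum (ER), 12 fell and 1 rose by edgeR (median -0.39), and 11 fell and 1 rose without replicate 3. Hspa5, for the chief ER chaperone BiP, had 519, 519.9, 458 and 627 CPM in LL ZT12 livers, against 929, 984, 886 and 833 CPM in LL ZT6 livers (log2 fold change -0.77 ± 0.15 (SE), adjusted p = 6.1e-04). Hyou1, for a large ER chaperone, had 83.3, 93.9, 55.7 and 122 CPM in LL ZT12 livers, against 191, 207, 187 and 167 CPM in LL ZT6 livers (-1.08 ± 0.20, adjusted p = 3.4e-04). Pdia4, for a disulfide isomerase, had 148, 162, 121 and 168 CPM in LL ZT12 livers, against 231, 235, 211 and 216 CPM in LL ZT6 livers (-0.58 ± 0.11, adjusted p = 7.1e-04). In each of the 3 the groups lay apart, with the lowest value in replicate 3. Others that fell were Sdf2l1 (-1.01), Manf (-0.88), Creld2 (-0.84), Syvn1 (-0.53), Dnajb11 (-0.44), Calr (-0.43), Hsp90b1 (-0.34), Pdia3 (-0.32) and Pdia6 (-0.28), in log2 units, of which Hsp90b1 and Pdia6 were not called without replicate 3. Herpud1, a component of ER-associated degradation, was the exception and rose (0.76 ± 0.16, adjusted p = 0.0021). Xbp1, for a transcription factor of this response, was at -0.38 ± 0.12 (adjusted p = 0.052).

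Of 22 acute phase genes, 7 fell and none rose by edgeR, 8 fell and 1 rose by both DESeq2 and limma-voom, and 6 fell without replicate 3, with 14 at an unadjusted p under 0.05 (median -0.37). The 3 chains of fibrinogen fell alike. Fga had 2959.6, 3247, 2565 and 3159.8 CPM in LL ZT12 livers, against 4717, 4278, 5034 and 5553 CPM in LL ZT6 livers (log2 fold change -0.71 ± 0.12 (SE), adjusted p = 1.8e-04), and Fgb and Fgg were at -0.68 ± 0.12, adjusted p = 1.9e-04 and -0.65 ± 0.11, adjusted p = 1.8e-04. Itih3, Lbp, Apcs and Cp, for other secreted proteins of inflammation, fell by 0.67, 0.73, 0.53 and 0.33 log2 units, and Cp was not called without replicate 3. The strongest acute phase markers, Saa1 and Saa2, were at -1.20 ± 0.54 and -1.34 ± 0.64 and not called (adjusted p = 0.17 and 0.20). Of 22 interferon genes, 4 fell and none rose by edgeR, against 6 and 0 by DESeq2, 5 and 0 by limma-voom, and 2 and 0 without replicate 3 (median -0.28). Those were Oasl1, Irf9, Rsad2 and Usp18, at -0.63, -0.46, -0.75 and -0.64 with all libraries, and Irf9 and Rsad2 were not called without replicate 3. Atf5, for a factor of the integrated stress response, fell, with 232, 274, 371 and 267 CPM in LL ZT12 livers, against 462, 396, 441 and 539 CPM in LL ZT6 livers (log2 fold change -0.68 ± 0.11 (SE), adjusted p = 9.3e-05), and Mthfd2 was the only other of the 13 tested genes of that list called lower (-1.07 ± 0.25, adjusted p = 0.0049). Without replicate 3, 3 of them were called lower, and the list's median was -0.48, against -0.29 with all libraries.

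Kupffer cell and macrophage markers lay lower in LL ZT12 livers, the same direction as the called acute phase and interferon genes. Over all 14456 tested genes, 3418 had an unadjusted p under 0.05. Of the 12 markers, 10 had one, while 1, Csf1r, was called lower by edgeR (-0.43 ± 0.14, adjusted p = 0.048), 3 by DESeq2, 2 by limma-voom and 0 without replicate 3. Their median was -0.41, -0.42 without replicate 3, and no marker was at 0. Summed, they lay at 325 to 395 CPM in LL ZT12 livers, against 425 to 529 CPM in LL ZT6 livers, without overlap. The part of these cells in the other results was not tested. Markers of sinusoidal endothelium and of stellate cells had medians of -0.06 and -0.05. Of 11 listed T and NK cell genes, only 1 was tested. It had 4.15 to 5.22 CPM in LL ZT12 livers, against 2.48 to 6.77 CPM in LL ZT6 livers. Of 10 listed neutrophil and monocyte genes, 3 were tested. These summed to 2.28 to 4.32 CPM in LL ZT12 livers, against 2.84 to 5.02 CPM in LL ZT6 livers. Single calls came from the sinusoidal markers (Cdh5, -0.41) and the bile duct markers (Sox9, -0.73), neither called without replicate 3. No call was made among the tested B cell, erythroid, adipocyte or stellate cell genes by edgeR, DESeq2 or limma-voom, with 0, 0, 1 and 2 at an unadjusted p under 0.05. Lgals4 and Fabp2, in the list of gut and pancreas markers, rose (1.09 ± 0.22, adjusted p = 0.0012, and 0.48 ± 0.15, adjusted p = 0.035), though Fabp2 was not called without replicate 3. Of the 9 genes of that list, 2 were at 0 in all 8 livers.

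No call was made in several groups. For the counts at an unadjusted p under 0.05, the background is 3418 of all 14456 tested genes. None of 24 cytosolic ribosomal protein genes and none of 6 tested mitochondrially encoded transcripts was called by edgeR, DESeq2 or limma-voom, and none of either had an unadjusted p under 0.05. The same 3 tools called 0 of 6 cold-inducible RNA-binding genes (0 at an unadjusted p under 0.05) and 0 of 16 immediate early genes (2 at an unadjusted p under 0.05). Of 24 genes of coagulation and complement, listed apart from the fibrinogens, the tools called 0 with all libraries (8 at an unadjusted p under 0.05), and 2 rose without replicate 3. Of 22 nuclear genes of oxidative phosphorylation, Atp5o was called higher by edgeR (0.42 ± 0.13, adjusted p = 0.035), DESeq2 called 1 gene higher, and 11 had an unadjusted p under 0.05, while limma-voom, and edgeR without replicate 3, called 0. Their median was 0.19 with replicate 3 and 0.06 without it, and Ndufa1, with a short transcript, had 47.5, 49.3, 135 and 54.1 CPM in LL ZT12 livers, against 47.8, 42.6, 49.2 and 58.8 CPM in LL ZT6 livers.

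Smaller counts came from the other lists, beside 5.01% called higher and 4.75% called lower over all tested genes. No list was tested as a set. Of 18 apolipoprotein and lipoprotein genes, 2 rose, Angptl4, for an inhibitor of lipoprotein lipase (1.25 ± 0.20, adjusted p = 6.9e-05), and Apoa5, which favours triglyceride clearance (0.46 ± 0.10, adjusted p = 0.0014). Among 13 genes of lipid droplets, the lipase genes Pnpla2 and Lipe rose (0.47 ± 0.12, adjusted p = 0.0088, and 0.52 ± 0.15, adjusted p = 0.025), and neither was called without replicate 3, when 1 other gene of the list was. In the 16 genes of glycogen, glycolysis and glucose uptake, 2 rose and 1 fell, and 5 rose and 2 fell without replicate 3. Pfkfb1, for the liver enzyme that sets fructose 2,6-bisphosphate, rose besides Gys2 (0.89 ± 0.14, adjusted p = 7.4e-05). Igf1, the hormone made by liver under growth hormone, and Igfbp4, 1 of its carriers, rose by 0.35 and 0.36 log2 units, Igf1 with all libraries only. Sec23b and Copa, of the coats of secretory vesicles, fell (-0.65 ± 0.13, adjusted p = 0.0014, and -0.34 ± 0.10, adjusted p = 0.022), and 2 others of the 20 rose when replicate 3 was left out. Bnip3, for a receptor of mitophagy, rose (0.76 ± 0.10, adjusted p = 2.8e-06), while Sqstm1 and Tfe3 of the same autophagy list fell by 0.29 and 0.33. In the proteasome list, Psmd11 was called lower (-0.30), with 2 genes lower without replicate 3 or by limma-voom, and 1 higher and 2 lower by DESeq2. In the heat shock list, Hspe1, which overlaps Hspd1, was called higher (0.40), with 2 genes higher without replicate 3. Ncl was the single call in ribosome biogenesis (0.20). Of the serum response and actin genes, Cnn3 rose and Actg1 fell (0.32 and -0.50), with 1 higher and 2 lower without replicate 3.

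**Figure D4:**
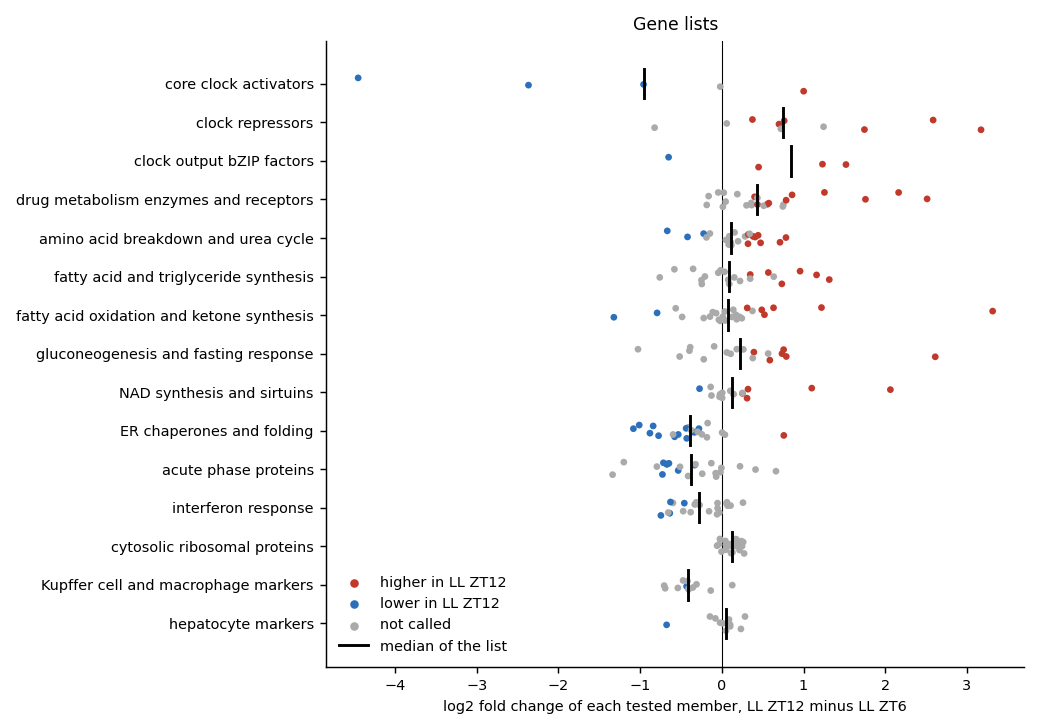
Log2 fold change of each tested member, LL ZT12 minus LL ZT6 (horizontal axis), for 15 gene lists (rows); red points were called higher in LL ZT12 livers, blue points lower, grey points not called, and black bars are list medians. Medians lie between -0.96 for clock activators and 0.84 for clock output factors, and ER chaperones and acute phase proteins lie at -0.39 and -0.37.

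Ranked by the difference in mean CPM rather than by ratio, a rule chosen after the values were seen, abundant transcripts came first. Among the 12 called genes with the largest rise in mean CPM were Fads2, Pck1, Thrsp, Upp2 and Alas1, with differences of 1213, 1172, 1101, 689.7 and 503 CPM. Uox, for urate oxidase, rose by 639.8 CPM (0.35 ± 0.11, adjusted p = 0.035), and Slc38a3, for a glutamine transporter, by 592 CPM (0.42 ± 0.11, adjusted p = 0.010). Ces1d, for a carboxylesterase that hydrolyses triglycerides, had 1158, 1046, 953 and 994 CPM in LL ZT12 livers, against 472, 519, 561 and 337 CPM in LL ZT6 livers (log2 fold change 1.14 ± 0.14 (SE), adjusted p = 2.1e-06). The locus CT010467.1 was also among the 12, with 1629.9, 1541, 4987 and 1772 CPM in LL ZT12 livers, against 1006, 1197, 1262 and 1697 CPM in LL ZT6 livers, and was not called without replicate 3. Its annotation overlaps Gm42418, so reads of both may be mixed. The 3 largest falls in mean CPM were those of the fibrinogen chains, -1913, -1588 and -1224 CPM for Fga, Fgb and Fgg. Gldc, for the glycine cleavage system, had 233, 263, 137 and 264 CPM in LL ZT12 livers, against 429, 530.0, 474 and 413 CPM in LL ZT6 livers (log2 fold change -1.04 ± 0.13 (SE), adjusted p = 1.6e-06). Coq8a, a kinase-like protein of coenzyme Q synthesis, had 241, 254, 216 and 221 CPM in LL ZT12 livers, against 381, 470.0, 545 and 463 CPM in LL ZT6 livers (-0.998 ± 0.11, adjusted p = 3.8e-07).

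The same clock hours gave the opposite step in SL livers, which share no library with the LL step. The test of the difference between both steps, each ZT12 minus ZT6, called 2790 genes (19.3%). Of the 724 genes that rose in LL, 332 were called lower and 3 higher in SL ZT12 against SL ZT6 livers, beside 671 (4.64%) and 791 (5.47%) called over all tested genes, and for 661 the difference between the steps was called. Of the 686 that fell in LL, 381 were called higher and none lower in SL, and for 636 the difference was called. As these genes were chosen by the LL step, which is part of that difference, the 661 and 636 are descriptions. The 3 genes called higher in both were Parp16, Btnl9 and Gm11266, at 0.34, 0.44 and 0.996 in SL and 0.61, 0.65 and 0.94 in LL. Usp2, for instance, averaged 40.998 ± 7.55 CPM in LL ZT12 and 3.04 ± 2.50 CPM in LL ZT6 livers, and 5.41 ± 1.76 CPM in SL ZT12 and 43.3 ± 7.49 CPM in SL ZT6 livers (SD, n = 4 each).

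Set against the SL step from ZT18 to ZT0, the LL step had mostly the same directions. Of the genes risen in LL, 272 were called higher and 1 lower in SL ZT0 against SL ZT18 livers, beside 558 (3.86%) and 477 (3.3%) over all tested genes. Of those fallen in LL, 285 were called lower and 1 higher. The 2 genes of opposite sign were Tedc2 and BC023105. The test of the difference called 25 genes (0.173%), with 1287 at an unadjusted p under 0.05, and a miss of the threshold does not show that a gene's steps were equal. Several of the 25 were clock genes or receptors named above. Per3 rose by 1.75 in LL and by 3.77 in SL (difference -2.03 ± 0.34 (SE), adjusted p = 0.0041). Dbp rose by 1.52 in LL and 4.16 in SL (difference -2.64 ± 0.49 (SE), adjusted p = 0.0091). Both rises were smaller in LL. Cry1 was at 0.06 in LL and at -1.29 in SL, where it averaged 8.75 ± 1.47 CPM at ZT0 and 21.5 ± 1.27 CPM at ZT18 (SD, n = 4 each). Nr1d1 was at -0.82 in LL and 1.01 in SL (difference -1.83 ± 0.39 (SE), adjusted p = 0.047). Of genes outside the clock lists, Ppard, for the fatty acid receptor PPAR delta, was at -0.25 in LL and -1.89 in SL (difference 1.64 ± 0.22 (SE), adjusted p = 1.6e-04). Nr1i2 rose by 0.79 in LL, beside 0.17 in SL, and Hmgcs1 was at -0.88 in LL and 0.41 in SL (differences 0.62 and -1.29, adjusted p = 0.047 and 0.047).

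**Figure D5:**
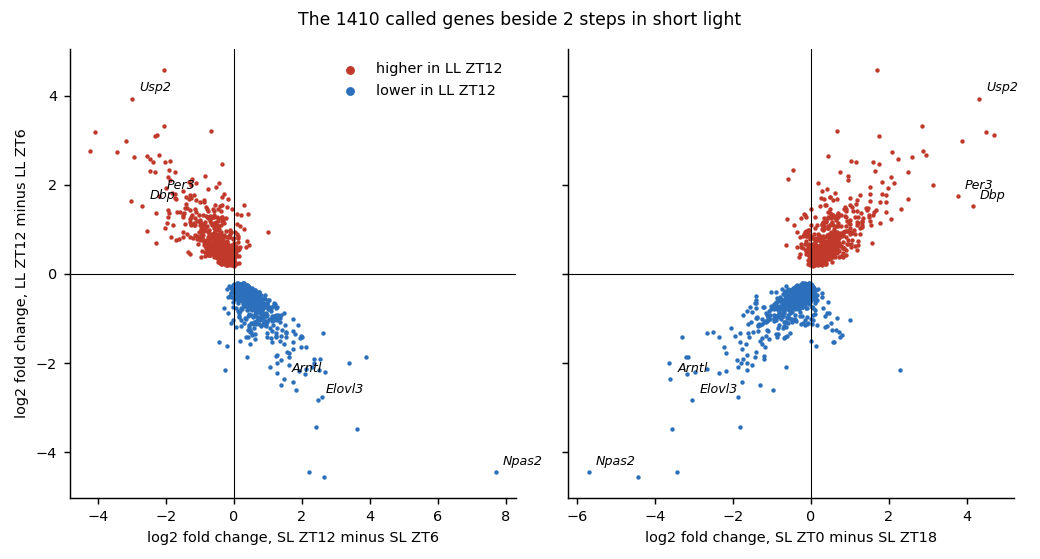
Log2 fold change of the 1410 called genes in LL, ZT12 minus ZT6 (vertical axis), against the SL step of the same hours, ZT12 minus ZT6 (left, horizontal axis), and against the SL step ZT0 minus ZT18 (right, horizontal axis). Of the 724 risen genes (red), 687 lie below 0 on the left and 660 above 0 on the right; of the 686 fallen genes (blue), 660 lie above 0 on the left and 618 below 0 on the right.

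The neighbouring steps in LL, which share a group with this one, are given side by side with it. From ZT0 to ZT6, 225 genes (1.56%) were called, and from ZT12 to ZT18, 885 (6.12%). Arntl was at -1.18 log2 units from ZT0 to ZT6, -2.37 from ZT6 to ZT12 and 2.94 from ZT12 to ZT18. For Usp2 the 3 steps were -0.24, 3.93 and -0.86, for Elovl3 -0.66, -2.83 and 2.24, for Nr1d1 3.27, -0.82 and -2.77, and for Hspa5 0.18, -0.77 and 0.14. In mean level over the 4 times of LL, Usp2 was at 3.11 ± 1.03 CPM at ZT0, 3.04 ± 2.50 at ZT6, 40.998 ± 7.55 at ZT12 and 22.5 ± 4.27 at ZT18 (SD, n = 4 each), so that ZT12 was the highest of the 4. Elovl3 was at 549.8 ± 86.7, 349 ± 94.6, 49.1 ± 8.72 and 233 ± 30.6 CPM at the same times.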

How the data were processed

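Polyadenylated liver RNA of 32 mice, 4 in each of 8 groups by photoperiod and time, was sequenced, and per the labels each library is 1 sample. The deposited count table holds raw counts for 55471 genes. Per the submitters' processing notes, bcl2fastq 2.20.0, STAR 2.7.2b and featureCounts 1.6.2 were used with GRCm38/mm10. Which strand setting the counting had is unknown. The authors also deposited normalized log2 values, used as an alternative only.

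Counts were fitted with edgeR 4.0.16 (R 4.3.3): filterByExpr with a minimum count of 10, TMM scaling, 8 group means over all 32 libraries, the quasi-likelihood F-test and Benjamini-Hochberg adjustment over 14456 genes. CPM are TMM-scaled. Fold changes are LL ZT12 over LL ZT6, with SE from the F statistic. DESeq2 1.42.0, limma-voom and limma 3.58.1 on the deposited log2 values, other scalings, filters and sets of libraries were alternatives. On simulated counts the fit called 86 of 100 genes changed by 1 log2 unit, 99 of 100 changed by 2, and 10 of 14256 unchanged genes. Only genes with a mean of at least 1 CPM were changed, and no simulated library stood apart as LL ZT12 replicate 3 does. These figures therefore do not cover the effect of that library. No 2 libraries of the groups compared agreed within sampling noise.

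Named genes were the 12 largest rises and falls among called genes with a mean of at least 1 CPM, the 6 smallest p-values, all listed clock genes and up to 3 members of each list, beside others named as list members or as chosen after their values were seen. The members and the 45 gene lists were chosen with earlier results of these data known, and some of their members are not reported here. Gene positions were taken from GENCODE M21 and promoter windows from RefSeq.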

Additional observations from a re-analysis of the deposited data

Results flagged for a closer look

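In 5 of 76 groups of 4 livers, over 38 named genes, 1 liver lay far from the other 3, which chance gives in about 1 of 20 groups. Of the 5, 2 were in LL ZT12 replicate 3, with Clpx at 66.1 CPM and Rora at 38.7 CPM. Elovl3 was lowest in LL ZT12 replicate 1, at 36.3 CPM. Usp2 was highest in LL ZT6 replicate 1, at 6.77 CPM, and Dhrs9 in LL ZT6 replicate 4, at 4.93 CPM.

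The step from ZT6 to ZT12 differed between LL and SL livers for 2790 genes by a test of the difference itself in edgeR. Of the 38 named genes examined here, 35 were among them. The largest rises and falls of these were chosen by the LL step, which is part of this difference. The difference is the LL step minus the SL step in log2 units. It was above 0 for genes of the clock loop and its output, with 7.26 for Ciart, 5.05 for Per1, 1.46 for Per2, 3.95 for Per3, 0.52 for Cry2, 2.99 for Nr1d2, 1.15 for Bhlhe40, 2.16 for Bhlhe41, 4.23 for Dbp, 2.54 for Tef and 0.97 for Hlf. Bhlhe40 and Bhlhe41 were not called in the LL step itself. It was below 0 for Npas2 at -12.14, Arntl at -3.85, Clock at -1.11 and Nfil3 at -1.13, and the value of Npas2 rests on livers with almost no read. Among the largest rises it was 6.94 for Usp2, 5.37 for Acot3, 5.57 for Ppp1r3g, 4.90 for Alas1, 2.83 for Nat8f5, 4.80 for Mt2, 4.02 for Mt1, 4.61 for Upp2, 3.05 for Tnnc1 and 4.11 for Por. Among the largest falls it was -5.29 for Elovl3, -4.44 for Zbtb7c, -4.25 for Clic3, -4.39 for Spon2, -3.66 for Dhrs9, -4.28 for Atp2b2, -3.45 for Ppp1r3c, -3.38 for Clpx, -3.29 for Slc30a10 and -3.40 for Dtx4.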

How the results depend on the processing

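The count of genes changed in the step, 1410, kept within 1.5 times of that value with other scalings, filters and tests, and depended on which libraries set the spread. With the 8 libraries of the step alone, 387 genes were called, 202 higher and 185 lower, and with the 16 LL libraries 870, 450 higher and 420 lower. The 7 libraries without LL ZT12 replicate 3, a setting chosen after seeing the data, gave 452 genes lower. Leaving out each of the 8 libraries in turn gave 1029 to 1864 genes, 527 to 993 higher and 502 to 871 lower, and 2524 to 3265 genes for the difference from the SL step of the same hours. The difference from the SL step from ZT18 to ZT0 was the least settled count. Its 25 genes became 93 with no filter, 66 with DESeq2, 16 with limma-voom, 4 with only the groups compared, and 11 to 31 leaving out libraries in turn, with 11 without LL ZT12 replicate 1 and 14 without LL ZT6 replicate 4. The cause was not tested.

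Livers of the same replicate number correlated at 0.018, 0.070, 0.005 and -0.14 in their deviations from the group means. Livers of different numbers correlated at -0.22 to 0.28. With so few pairs, these values cannot decide whether the numbers pair the samples, and the main fit did not use them. With the replicate block, 1418 genes were called over all libraries, and 226 (134 higher, 92 lower) with the 8 libraries alone. The difference from the SL step from ZT18 to ZT0, with the block and only its 4 groups, called 2 genes.

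The sign turned for genes that were not called in any of these settings. Leaving out libraries in turn, Rora lay at -0.11 to 0.18 on the log2 scale, Cry1 at -0.020 to 0.22, Hnrnpdl at -0.023 to 0.22, Rps19 at -0.021 to 0.31 and Rpl30 at -0.056 to 0.38. In the 7 libraries, Rora was at 0.17, Hnrnpdl at -0.028, Rps19 at -0.026 and Rpl30 at -0.060. Over 123 named genes and all settings, 2236 values kept their call and sign, 161 lost and 47 gained a call. P-values set a step against the spread between livers of the same group, estimated in the main fit from all 32 libraries. Genes of a few CPM have the widest errors.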
